A study of Homo sapiens with 4 samples.

Results

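The HOX cluster genes are the homeobox genes that lie side by side in 4 clusters, HOXA, HOXB, HOXC and HOXD. The 38 genes described here were taken from a fixed list of members, 10 in HOXA, 10 in HOXB, 9 in HOXC and 9 in HOXD, among 20090 protein-coding genes of the annotation, and the rule that lists them uses no binding value, although it was set with earlier results of these data known. A cluster was taken as the sequence between its outermost listed genes. Every peak with its summit (the base of highest signal) inside a cluster was counted, as was every peak with its summit in the 1 Mb on either side, called the flanks.

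MEIS1 and MEIS2 binding had been mapped by ChIP-seq, the sequencing of DNA fragments that an antibody pulls down, in human neural stem cells (hNSC). The cells were a purchased line in serum-free medium with no treatment or genotype named, and the labels gave 2 MEIS ChIP samples and 2 Input samples of sheared chromatin. The antibodies were 1.5 µg of anti-MEISa, which the study describes as anti-MEIS1/2A, and 1.5 µg of anti-MEIS1, so a peak does not tell MEIS1 from MEIS2. The study describes 2 batches of cells handled in parallel, and p-values of peaks measure signal against Input within a library, not the spread between cultures. Because peak lists hold no RNA measurement, the neural stem cell label could not be checked against marker genes, and HOX expression was not measured here. The study describes the line as having a normal chromosome number and as not expressing HOX genes, which the peak lists cannot check.

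HOX proteins set the identity of body segments along the head-to-tail axis, and in the nervous system they do so in the hindbrain and spinal cord. They bind DNA weakly on their own and gain selectivity through partners of the TALE homeodomain class, the PBX and MEIS proteins, which form pairs with each other and larger complexes with HOX proteins. Well-studied enhancers of hindbrain HOX genes carry adjoining PBX-HOX and MEIS motifs, which makes the HOX clusters both a source of MEIS partners and known targets of them. Genes are numbered by paralog group, and low numbers act towards the head while high numbers act towards the tail and in limbs.

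Replicate 1 held 36796 peaks and replicate 2 held 47449, called per replicate against Input at a loose p-value of 0.01. A list of 5169 reproducible sites, made by the authors from both replicates with the irreproducible discovery rate (IDR), is the stricter readout. The lists hold no read counts, so the sequencing depth of the libraries is unknown and intervals here cover the counting of peaks alone.

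The sequence around the HOX cluster summits is shown first. The MEIS core TGACAG was in the 500 bp windows of 4 of the 7 peaks. The HOXA13 peak, called in each replicate, counts 2 times among these 4. By replicate, 3 of 4 and 1 of 3 had the core, against 45.8% of all replicate 1 peaks and 45.9% of all replicate 2 peaks. Counts this small show no difference. Of the 7 peaks, called on GRCh37, 4 came from replicate 1 and 3 from replicate 2. Capitals mark TGACAG, the part of the composite motif that MEIS recognises, and each run holds 30 bases read on the strand that carries the core. The HOXA13 run lies 2 bp from the replicate 1 summit and 23 bp from the replicate 2 summit, as distances to the centre of the core. The HOXB and HOXD runs lie 206 bp and 227 bp from theirs, and start 84 bp and 99 bp beyond the called end of the peak. The HOXA13 run is thus the only core printed here that lies inside a called peak of a cluster.
HOXA13 peak of both replicates, chr7:27236027-27236056, minus strand: gaccttgactttTGACAGctcatgaattgg
HOXB, beyond the replicate 1 peak, chr17:46749996-46750025, plus strand: accattagggagTGACAGgaccagtatttg
HOXD, beyond the replicate 1 peak, chr2:177038307-177038336, minus strand: aggaagaattcaTGACAGcatttcctagag
The other 3 peaks inside, all in HOXB, had no TGACAG within the 500 bp around their summits.

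No reproducible site had its summit inside any of the 4 HOX clusters. Together the clusters cover 515.4 kb, and 0 sites in that length allow a density of up to 5.82 per Mb (3 counts, a limit on one side; the exact Poisson interval, with limits on both sides, ends at 7.16). The genome held 1.82 sites per Mb, at which 0.939 sites would fall inside, so a depletion of reproducible sites was not detectable at this length. The flanks, which add up to 8 Mb, held 11 sites, a density of 1.38 per Mb (exact Poisson 95% interval 0.686 to 2.46), which was 0.754 times that of the genome (0.376 to 1.35).

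The longer replicate lists had few peaks inside. Replicate 1 had 4 summits in the clusters, 7.76 per Mb (2.11 to 19.9), against 116 in the flanks, 14.5 per Mb (12 to 17.4), and 13 per Mb in the genome. Replicate 2 had 3, 5.82 per Mb (1.2 to 17), against 143 in the flanks, 17.9 per Mb (15.1 to 21.1), and 16.7 per Mb in the genome. In replicate 1 the density inside was 0.535 times that of the flanks, with an exact interval of 0.143 to 1.41 that includes equality. In replicate 2 it was 0.326 times, and the interval of 0.0664 to 0.971 ended just below equality, while the ratio to the genome, 0.348, had an interval of 0.0717 to 1.02. Both replicates therefore had fewer peaks inside than the 6.69 and 8.62 that the genome's density gives, and by counting error alone only the interval to the flanks of replicate 2 lay below equality. With flanks of 500 or 250 kb that interval reached 1.01 and 1.68, and at a −log10 p of at least 5 it reached 1.58, so the lower density is not clear of counting error at every setting.

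**Figure D1:**
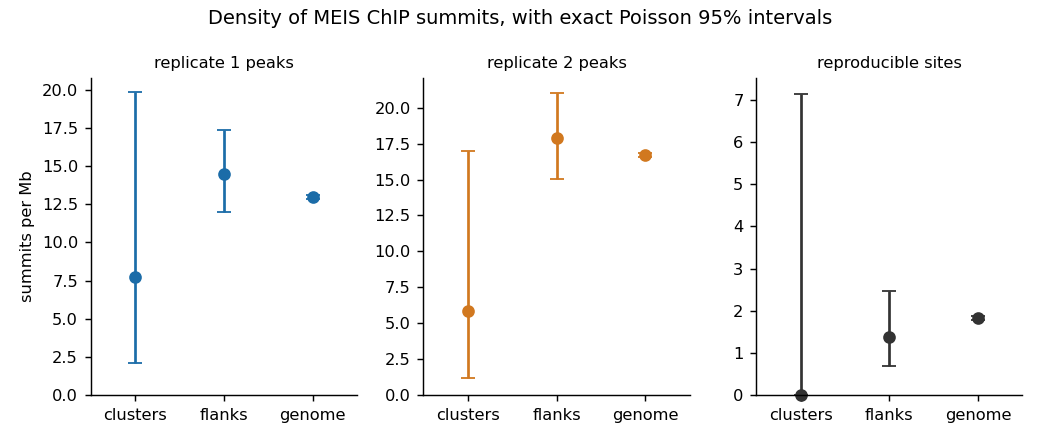
Density of summits per Mb (vertical axis) in the 4 HOX clusters, in their flanks and in the genome, for replicate 1, replicate 2 and the reproducible sites, with exact Poisson 95% intervals as bars. The clusters sit at 7.76, 5.82 and 0 per Mb, below flanks and genome in each panel, with wide bars.

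The sequence of the clusters itself differs from its surroundings. Its G+C content was 50.9%, against 42.9% in the flanks and 40.9% in the genome, and its ratio of observed to expected CpG dinucleotides was 0.457, against 0.245 in the flanks. The core TGACAG occurred 241 times on either strand inside, 468 per Mb, against 688 per Mb in the flanks and 659 per Mb in the genome. Of these 241 cores, 2 (0.830%, Wilson 95% interval 0.228 to 2.97) were inside a replicate 1 peak, where the share over the genome was 1.51%. In replicate 2 peaks, again 2 of 241 were covered, against 1.93% of cores over the genome. In each replicate the 2 covered cores are those of the single HOXA13 peak. They are not independent of each other, and the interval is too narrow to that extent. Reproducible sites covered 0 of 241, which allows a share of up to 1.24% (3 counts), against 0.390% of cores over the genome. Base composition and the number of cores thus differed along with peak density, and their part in it was not tested.

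Inside the HOX clusters, the full PBX-MEIS composite, TGAT or TGAG followed directly by TGACAG, occurred 3 times, or 5.82 per Mb, where the genome had 9.99 per Mb. These stretches are printed because the PBX-MEIS composite is the sequence that a MEIS and PBX pair is known to bind, and capitals mark its 10 bases. The first lies in the HOXB cluster, the others in HOXC.
HOXB, chr17:46754538-46754567, minus strand: cactccagttTGAGTGACAGaggaagaccc
HOXC, 6.51 kb upstream of HOXC12, chr12:54342171-54342200, plus strand: tattccagccTGAGTGACAGaccgagactc
HOXC, 2.14 kb upstream of HOXC9, chr12:54391795-54391824, plus strand: ggagatttttTGATTGACAGctaacccaac
None of the 3 was inside a peak of either replicate. The HOXB copy was 4.74 kb from the nearest replicate 1 summit and 3.31 kb from the nearest replicate 2 summit. The HOXC12 copy was 117 and 91.3 kb away, and the HOXC9 copy 166 and 141 kb away. Over the genome, 3.72% of composites were inside a replicate 1 peak, 4.60% inside a replicate 2 peak and 1.14% inside a reproducible site. At those shares 0.112, 0.138 and 0.0343 of the 3 would be covered, so their lack of a peak shows no difference.

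HOXA is the cluster with the strongest peak, and it was the same peak in both replicates. The HOXA cluster spans chr7:27139973-27239710, 99.7 kb on the minus strand from HOXA2 to HOXA13, and had 1 summit in each replicate. Replicate 1 had a peak at chr7:27235858-27236322 with a fold enrichment over Input of 2.60 and a −log10 p of 5.99, and replicate 2 had a peak at chr7:27235790-27236240 with a fold of 3.83 and a −log10 p of 7.36. Their summits were 25 bp apart. By −log10 p they stood at the 60.6th percentile of replicate 1 peaks and the 68.1st of replicate 2 peaks, near the middle of their lists, and neither entered the list of reproducible sites.

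The HOXA peak lies in the 3′ untranslated part of exon 2 of HOXA13, the last of its 2 exons. HOXA13 is the HOX gene of this cluster that acts furthest towards the tail, in the hindgut, the genital tract and the digits. The summits were 3.67 kb (replicate 1) and 3.65 kb (replicate 2) downstream of the canonical start, and 821 and 846 bp from the start of a shorter annotated transcript at chr7:27235219, for which no coding sequence is defined. The 500 bp window held 2 TGACAG cores and neither the PBX-MEIS composite nor the PBX-HOX consensus TGATTNAT. The other 9 genes of the cluster, HOXA2 to HOXA11, had no summit in their bodies, and a stretch of 96.1 kb of the cluster had none in either replicate. At the genome's density, 1.29 replicate 1 peaks and 1.67 replicate 2 peaks would fall in the whole cluster, so 1 in each shows no difference.

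HOXB, at chr17:46605888-46806112, is the longest cluster at 200.2 kb, because HOXB9 and HOXB13 are 98.4 kb apart. Of the listed genes, only HOXB7 reaches into that gap, with its annotated far end. The gap also holds the canonical start of another protein-coding gene, PRAC1. All HOXB summits lay in that gap, 2 in each replicate, within the long noncoding RNA gene LINC02086. The 97.8 kb from HOXB1 to HOXB9 held 0 in either replicate. A count of 0 there allows up to 37.7 per Mb (exact Poisson interval). That limit lies above the genome's 13 and 16.7 per Mb, so the count shows no difference. Replicate 1 had a peak at chr17:46749204-46749912 with a fold of 2.23 and a −log10 p of 3.62. It overlapped a replicate 2 peak at chr17:46749207-46749623 with a fold of 2.02 and a −log10 p of 2.12, which is at the 1.17th percentile of that list, and the summits were 517 bp apart. These summits were 46.1 and 45.6 kb upstream of HOXB9, whose canonical start was the nearest of a protein-coding gene. The remaining peaks had no partner. Replicate 1 had one at chr17:46762715-46763146 with the same fold and −log10 p as its first, and replicate 2 had its strongest at chr17:46757562-46758013 with a fold of 3.03 and a −log10 p of 4.01.

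With the HOXB cluster ended at HOXB9, so that the gap is counted as flank, replicate 1 had 2 summits inside the 4 clusters and replicate 2 had 1. The density was then 0.334 times that of the flanks in replicate 1, with an exact interval of 0.0400 to 1.23 that includes equality. In replicate 2 it was 0.134 times (0.00337 to 0.759), from 1 summit. The few peaks counted as inside thus lay mostly where no listed gene is.

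HOXC, at chr12:54332615-54449814, had no summit in either replicate over 117.2 kb from HOXC13 to HOXC4. At the genome's density, 1.52 replicate 1 peaks and 1.96 replicate 2 peaks would fall there, so an empty cluster of this length is not unusual. The stretch without a summit ran on into both flanks and measured 385 kb in replicate 1 and 358 kb in replicate 2. HOXC genes, which include HOXC8 to HOXC10 of the trunk and spinal cord, were accordingly 107 to 189 kb from the nearest replicate 1 summit and 81.7 to 176 kb from the nearest replicate 2 summit.

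HOXD, at chr2:176957449-177055635, had 1 summit in replicate 1 and 0 in replicate 2 over 98.2 kb. The replicate 1 peak, chr2:177037531-177038208, had a fold of 2.12 and a −log10 p of 3.20, at the 24.9th percentile, and lay 15.3 kb upstream of HOXD1 within the noncoding RNA gene HAGLR. No replicate 2 peak overlapped it. The cluster and its surroundings held no replicate 2 summit over 401 kb.

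**Figure D2:**
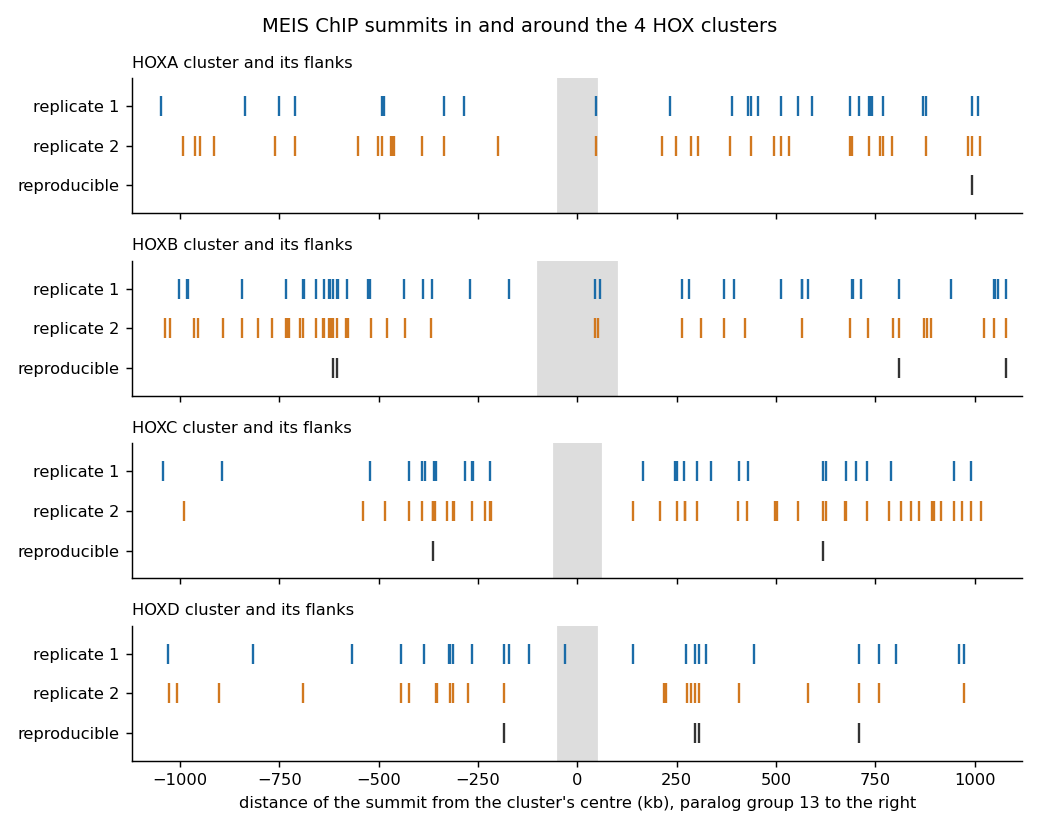
Summits of replicate 1, replicate 2 and the reproducible sites (rows of ticks) by distance in kb from the centre of each HOX cluster (horizontal axis), with the cluster shaded and paralog group 13 to the right. The shaded HOXC cluster is empty, HOXA has the 1 shared tick at HOXA13, HOXB ticks fall in its group 13 side, and all 11 reproducible sites lie outside.

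Near the starts of HOX genes, MEIS peaks were rare. Of 38 HOX genes, 1 (2.63%, exact binomial 95% interval 0.0666 to 13.8) had a replicate 1 summit within 1 kb of an annotated start, where 23.6% of all protein-coding genes had one. Replicate 2 had a summit near 1 of 38, against 22.7% of all genes. The gene was HOXA13 in both, through the shorter transcript described above, and peaks shared by both replicates gave the same 1 of 38, against 12.8%. At the share of all genes, 8.97 HOX genes would have had a replicate 1 summit, 8.61 a replicate 2 summit and 4.87 a shared peak. With canonical starts, 0 of 38 HOX genes had a summit within 1 kb in either replicate, against 17% and 14.8% of all genes. HOX genes lie a few kb apart and share their surroundings, so they are not independent of each other and the interval is too narrow to that extent.

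Reproducible sites lay near 0 of 38 HOX starts, against 2.26% of all genes. At that share 0.861 HOX genes would have had a site, so this count shows no difference.

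Starts rich in CpG dinucleotides had peaks more often over the genome, so HOX genes were also set beside genes of that kind. Of the 38 HOX genes, 32 had a ratio of observed to expected CpG of at least 0.6 in the 1 kb around the canonical start. Again 1 of 32 (3.13%, 0.0791 to 16.2) had a replicate 1 summit within 1 kb, where 29.7% of 13196 CpG-rich genes had one, and replicate 2 gave 1 of 32 against 27.8%. The count at HOX genes was thus below that of all genes among CpG-rich starts as well.

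**Figure D3:**
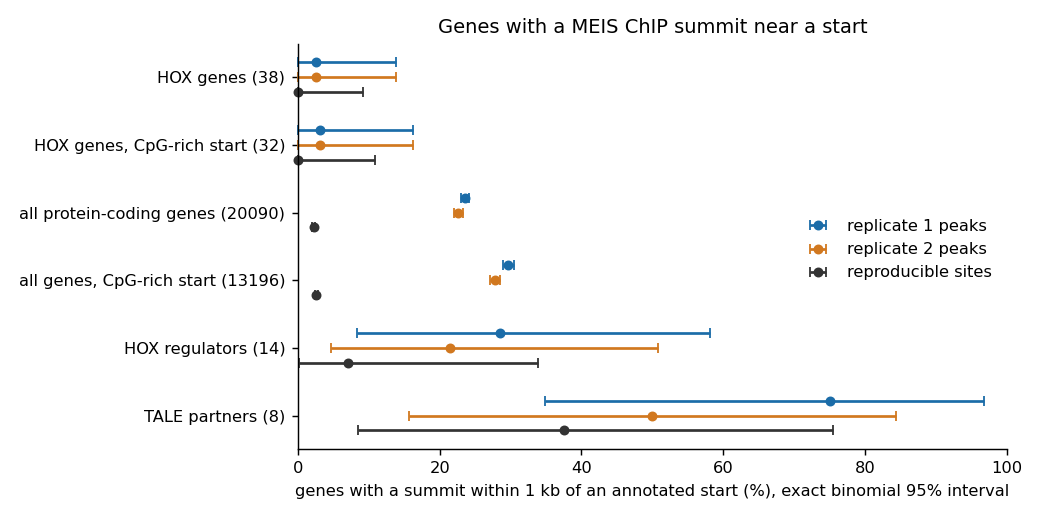
Share of genes (%, horizontal axis) with a summit within 1 kb of an annotated start, with exact binomial 95% intervals, for HOX genes, all protein-coding genes, the CpG-rich genes of both, HOX regulators and TALE partners. For both replicates the HOX intervals end at 13.8%, below the 23.6% and 22.7% of all genes, while TALE partners stand at 75% and 50%.

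Distances gave a graded view of the same members. The median HOX gene was 65.9 kb from the nearest replicate 1 summit (3.67 to 189 kb) and 95.8 kb from the nearest replicate 2 summit (3.65 to 198 kb), measured from the canonical start. Over all genes the medians were 22.4 and 19 kb. Within 10 kb there was 1 of 38 HOX genes in each replicate, and within 100 kb there were 29 in replicate 1 and 20 in replicate 2. Of 19812 genes with a canonical start, 34.4% and 36.8% were within 10 kb of a replicate 1 and a replicate 2 summit, and 86.5% and 90.2% within 100 kb. The difference between replicates came largely from HOXD, where the median was 50.6 kb in replicate 1 and 175 kb in replicate 2. The peak between HOXD3 and HOXD1 was called in replicate 1 alone. The nearest summit outside HOXD was also closer in replicate 1, at 71.6 kb from the cluster, against 135 kb in replicate 2. The share of each in the difference was not tested.

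The anterior HOX genes, which include those with well-studied PBX-HOX enhancers in the hindbrain, did not have the smaller medians. The 7 genes of paralog groups 1 to 3 had a median distance of 73.6 kb in replicate 1 and 127 kb in replicate 2. Groups 4 to 8 (15 genes) had 65.7 and 78.1 kb, and groups 9 to 13 (16 genes) had 61.3 and 107 kb. Genes of a cluster share their few nearest summits, so these medians do not come from separate measurements. In HOXA the only summit lies at HOXA13, so the distance grows towards HOXA2 by construction. Groups 1 to 3 also hold no HOXC gene. Genes of hindbrain patterning are named here for that role, after their values were seen. HOXB1, needed for the identity of a hindbrain segment, was 73.6 kb from a replicate 1 summit and 141 kb from a replicate 2 summit. HOXB2, its neighbour and known target, was 87.7 and 127 kb away, and HOXA2, which patterns the hindbrain and the second branchial arch, 93.7 and 93.8 kb. HOXD1 was 15.3 kb from a summit in replicate 1 and 137 kb in replicate 2.

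Reproducible sites were 137 to 1042 kb from HOX starts, with a median of 515 kb where that of all genes was 299 kb. HOXD genes were closest, at 137 to 233 kb, then HOXC genes at 306 to 421 kb, HOXB genes at 508 to 705 kb and HOXA genes at 944 to 1042 kb. These ranges did not overlap, and the genes of a cluster share their nearest sites, so they are not separate measurements.

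**Figure D4:**
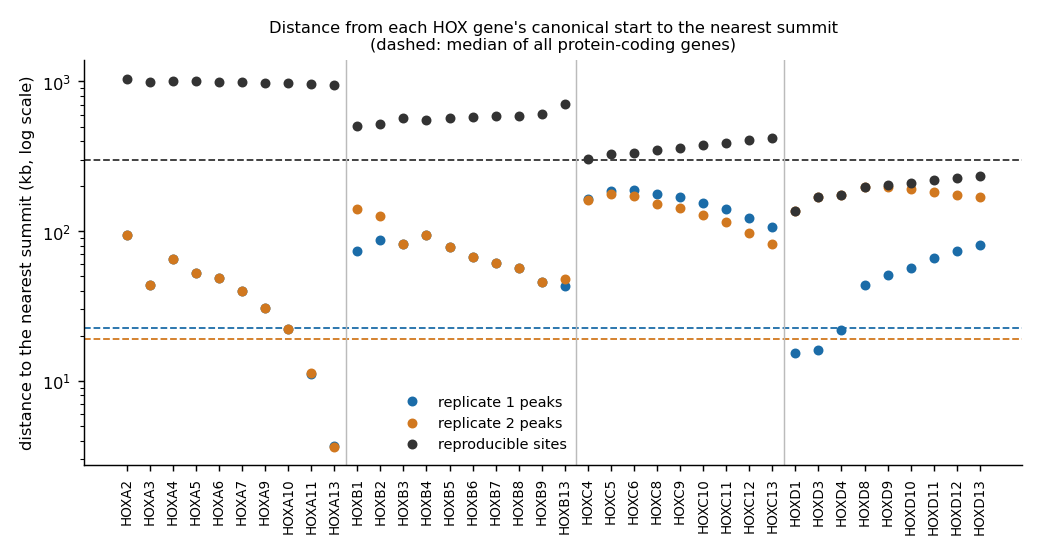
Distance in kb (vertical log axis) from the canonical start of each of the 38 HOX genes (horizontal axis, by cluster and paralog group) to the nearest summit, with dashed lines at the medians of all protein-coding genes, 22.4, 19 and 299 kb. HOXA13 is the lowest point in both replicates at 3.67 and 3.65 kb, and HOXC genes lie at 81.7 kb and above.

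Promoter sequence was compared where it could be matched. RefSeq promoters (build GRCh38.p14, 250 bases before to 50 after the start) were matched for 20 of the 38 HOX genes, and 4 of 20, HOXA2, HOXA4, HOXA13 and HOXD4, held TGACAG on either strand, where 15.9% of 27305 promoters did. The PBX-MEIS composite was in 0 of 20 and in 0.542% of all. The PBX-HOX consensus TGATTNAT was in 2 of 20, HOXA2 and HOXD11, against 2.94%. TAATTA, a core of many homeodomain proteins, was in HOXD3 and HOXD11, against 4.98%. HOX promoters with a MEIS core were therefore present in the sequence. No summit of either replicate lay within 1 kb of the canonical start of any of these 4. Over all genes 17% (replicate 1) and 14.8% (replicate 2) had one there, so 0 of 4 shows no difference. HOXA13 did have a summit near its shorter transcript in both replicates.

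Apart from the HOXA13 peak, peaks inside the HOX clusters lay in the lower part of their lists. The 4 replicate 1 values of −log10 p were 3.20, 3.62, 3.62 and 5.99, with a median of 3.62, where all replicate 1 peaks had 4.78 and those in the flanks 4.76. The 3 replicate 2 values were 2.12, 4.01 and 7.36, with a median of 4.01, equal to that of the flanks, where all replicate 2 peaks had 4.68. Only the HOXA13 peak passed a −log10 p of 5, in each replicate. In the flanks 47.4% of replicate 1 peaks and 39.9% of replicate 2 peaks passed it, close to the 46.9% and 46.8% of all peaks.

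The replicates shared 2 of the 4 replicate 1 peaks inside (50%, Wilson 95% interval 15 to 85), against 49.0% of all replicate 1 peaks. Of the 3 replicate 2 peaks inside, 2 had a partner, against 38.0% of all. The shared pairs were the HOXA13 peak and the first HOXB peak. In the flanks 44% of replicate 1 peaks (35.3 to 53) and 35.7% of replicate 2 peaks (28.3 to 43.8) were shared. None of the 7 peaks inside overlapped a reproducible site, where 14.1% of replicate 1 peaks and 10.9% of replicate 2 peaks did. With so few peaks, agreement between replicates inside the clusters could not be told from that elsewhere.

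**Figure D5:**
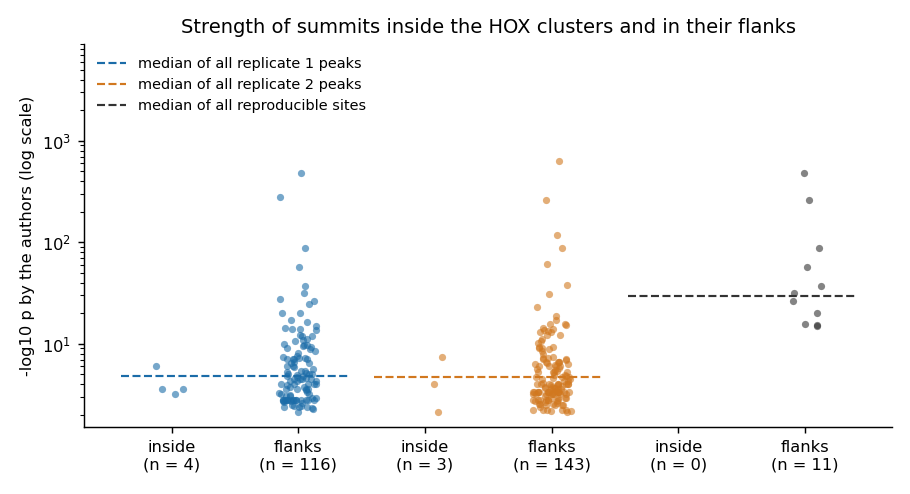
Values of −log10 p given by the authors (vertical log axis) for summits inside the HOX clusters and in their flanks, for replicate 1, replicate 2 and the reproducible sites, with dashed lines at the median of each whole list. The points inside stay at or below 7.36, while the flanks reach 484 in replicate 1 and 632 in replicate 2.

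The strongest binding around the HOX clusters lay in the much longer flanks. Of the 11 reproducible sites, 1 was in the HOXA flanks, 4 in HOXB, 2 in HOXC and 4 in HOXD, where the density of the genome gives 3.65 for the flanks of each cluster. TGACAG was in the 500 bp windows of 7 of the 11 (63.6%, 35.4 to 84.8), against 58.3% of all sites. The composite was in 1 of 11, and TGATTNAT in 1 of 11, against 4.93% and 10.8% of all sites.

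In the HOXB flanks, the strongest site had its summit at chr17:47515845, 710 kb beyond HOXB13. Replicate 1 gave it a −log10 p of 484 and a fold of 42.7, replicate 2 gave 632 and 100.2, and it ranked 102 of 5169. It was intergenic, 23.6 kb upstream of PHB1, a mitochondrial prohibitin, and held no TGACAG. The next sites lay on the other side, 505 and 514 kb beyond HOXB1, and were 14.3 and 23.6 kb downstream of the start of COPZ2, a subunit of the coatomer coat. Their −log10 p in replicates 1 and 2 was 88.6 and 88.9, and 31.7 and 60.6. The weaker of them is the flank site with the composite, and its core lies 3 bp from the summit. It is printed for comparison with the unoccupied composites inside, with the core in capitals and the preceding bases completing the composite.
COPZ2 site in the HOXB flank, chr17:46091547-46091576, minus strand: ttcccttctgagTGACAGacagacaaagac

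In the HOXD flanks, the strongest sites were a pair 11.3 kb apart in the intergenic stretch beyond HOXD13, which in other tissues is known for long-range enhancers of HOXD genes. The site at chr2:176699526, 258 kb from the cluster, had −log10 p values of 282 and 262 in replicates 1 and 2 and ranked 217 of 5169. The site at chr2:176710779, 247 kb from the cluster, had 57.3 and 118. The nearest canonical start of a protein-coding gene was that of LNPK, at 167 and 156 kb, which shapes the endoplasmic reticulum. The stronger site held no TGACAG in its window, and the other held 3. The third site, at chr2:177190674, lay 135 kb beyond HOXD1 in intron 4 of MTX2, a protein of mitochondrial import, with 26.6 and 30.8. It was the reproducible site nearest to any HOX cluster, and its nearest TGACAG is 100 bp from the summit.

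The HOXC flanks held 2 sites. The site at chr12:54753185, 303 kb beyond HOXC4, had a −log10 p of 37.4 and 38.3 in replicates 1 and 2, lay 5.09 kb downstream of the start of GPR84, a receptor for fatty acids, and held both TGACAG and TGATTNAT. The site at chr12:53773476, 559 kb beyond HOXC13, had 20.1 and 22.9 and lay 484 bp upstream of SP1, a widely expressed transcription factor. The HOXA flanks held 1, at chr7:28184143, 944 kb beyond HOXA13 in intron 1 of JAZF1, a zinc finger gene, with a −log10 p of 27.7 and 15.4 and TGACAG 13 bp from its summit. None of the 11 flank sites lay nearer to a HOX start than to that of another protein-coding gene.

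The genes of the partners of HOX proteins stood apart from the HOX genes in their counts. Of 8 TALE partner genes (PBX2 to PBX4, MEIS1 to MEIS3, PKNOX1 and PKNOX2), 6 had a replicate 1 summit and 4 a replicate 2 summit within 1 kb of a start, and 3 had a reproducible site there, against 23.6%, 22.7% and 2.26% of all genes. In the gene body, 4 of 8 had a site, PBX3, MEIS1, MEIS2 and PKNOX2, against 8.36% of all genes and 0 of 38 HOX genes. PKNOX2, which pairs with PBX as MEIS does, had 4 sites in its body, and the strongest ranked 7 of 5169 with −log10 p values of 1481 and 1906 in replicates 1 and 2. PBX3 had 1, with 55.0 and 100.9. MEIS1 had 2, the strongest in the 5′ untranslated part of exon 1 with 51.0 and 51.1, and MEIS2 had 2, the strongest in intron 8 with 79.7 and 40.7. TALE genes are long and HOX genes are short, so counts in gene bodies are not on equal length.

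Within 100 kb of the gene body, reproducible sites were found for 0 of 38 HOX genes and 5 of 8 TALE partners, against 27.3% of all genes. Within 500 kb, 18 of 38 HOX genes had a site, all in HOXC and HOXD, against 67.7% of all genes.

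Known regulators of HOX genes had counts near the shares of all genes. Of 14 genes (retinoic acid receptors, CDX factors, EGR2, GBX2, CTCF and the Polycomb and Trithorax genes), 4 had a replicate 1 summit and 3 a replicate 2 summit within 1 kb of a start (28.6% and 21.4%, against 23.6% and 22.7% of all genes). A site lay within 100 kb of 5 (35.7%, against 27.3%) and in the body of 2 (14.3%, against 8.36%). The 2 were RARA and RARB, receptors through which retinoic acid acts on HOX genes, named here after their values were seen. RARB had 4 sites, the strongest with a −log10 p of 124 and 70.1 in replicates 1 and 2, and RARA had 1, with 31.2 and 18.8. RARB is a long gene (chr3:24729378-25639423), so its count is not on equal length with the others. RARG, the other such receptor of the list, had no site within 100 kb and no summit within 1 kb of a start in either replicate.

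For comparison with other homeobox clusters, the Iroquois (IRX) clusters were counted in the same way. The IRX4 to IRX1 cluster (1724 kb) held 24 replicate 1 summits, 38 replicate 2 summits and 3 sites, and the IRX3 to IRX6 cluster (1047.5 kb) held 11, 16 and 2. Their densities were 1.07 and 0.809 times that of the genome in replicate 1, and 1.32 and 0.913 times in replicate 2, where the HOX clusters had 0.598 and 0.348. Set against both IRX clusters together, the density in the HOX clusters was 0.615 times as high in replicate 1, with an exact interval of 0.159 to 1.72 that includes equality. In replicate 2 it was 0.299 times as high, and the interval of 0.0597 to 0.921 lay below equality. For reproducible sites the counts were 0 and 5, and the interval of their ratio reached 5.87. The IRX clusters are longer and hold gene deserts, and these intervals cover counting error alone.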

How the data were processed

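Binding was measured by ChIP-seq in 2 MEIS ChIP samples of hNSC, grouped by their titles, and 2 Input samples entered through peak calling alone. Per the labels, the authors trimmed 36 bp paired reads with cutadapt 1.16, mapped them to GRCh37 with Bowtie2 2.3.0, filtered on a mapping quality of 30 or more (SAMtools 1.2) and took out duplicates (Picard 2.15.0). Reads in near-identical repeats are thereby lost. The authors called peaks per replicate with MACS2 (version not given in the sources used here) at p 0.01 and combined them with IDR 2.0.3. The study describes alternative wash protocols, and the one used for each replicate is not given in the sources used here.

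The deposited peak lists give fold enrichment over Input, a linear ratio, and −log10 p. The deposited site list gives a scaled IDR score, −log10 p and the −log10 of the global IDR. Its 8 per-replicate columns were not used, and a site's value per replicate is that of the overlapping replicate peak.

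Python 3.11.15, numpy 2.4.6, pandas 2.3.3 and scipy 1.17.1 were used with GENCODE 44 on GRCh37. Genome length was 2835.7 Mb without unknown bases. Intervals were exact Poisson or binomial, exact conditional (density ratios) or Wilson, at 95%, for counting error alone, and no test between groups was possible with 1 group. Overlap meant 1 bp or more. Consensuses were sought on both strands in 500 bp around summits (TGACAG is part of the composite). The counting was tested on simulated data. Named were all sites, overlapping replicate pairs and strongest peaks inside each cluster, the 3 strongest flank sites of each, HOX genes with a summit within 1 kb of a start, and partner genes with a site in the body or within 1 kb. Members, lists and tests were chosen with earlier results of these data known, and the CpG-rich class, the cores in cluster sequence and promoters, the distances by paralog group, the parts of HOXB and the ratio to the IRX clusters after the counts inside were seen. Alternatives covered flank length, thresholds, cluster ends, starts, overlap, windows and replicates. Some genes of the partner and regulator lists are not reported here.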

Additional observations from a re-analysis of the deposited data

How the results depend on the processing

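The 4 clusters are short, 515.4 kb in all, so counts of 0 to 4 decide every statement about them, and the libraries' depth is unknown. No paired analysis was possible because Input is without values of its own in these lists and the MEIS ChIP samples form 1 group. Of 171 alternative values, 133 stayed within the interval of the reported value or, for counts, within 1.5 times it, and 38 moved. Part of this was fixed in advance, so the tally overstates how stable the values are. Flank length cannot change the number inside or the ratio to the genome. With 0 sites inside, the ratio to the flanks also stays 0 at any flank length. For small counts the interval of the reported value is wide. With HOXB ended at HOXB9 the replicate 2 ratio to the flanks went from 0.326 to 0.134. At a −log10 p of 5 the replicate 1 ratio went from 0.535 to 0.282. The cause was not tested except where fewer peaks or shorter windows leave fewer counts by construction. Density ratios of clusters to flanks or genome stayed below 1 under every alternative run, and within their intervals.

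With a −log10 p of at least 5, each replicate kept 1 peak inside, and 55 (replicate 1) and 57 (replicate 2) remained in the flanks. Both peaks inside were then shared (100%), as were 67.3% and 64.9% of those in the flanks, against 75.8% and 58.8% of all peaks, so that replicate 2 flank peaks went from below to above the share of all. With HOXB ended at HOXB9, 2 and 1 peaks were inside. With canonical starts, 0 HOX genes had a summit within 1 kb in either replicate. An IDR of 0.001 or less left 7 flank sites. Summits within 100 bp gave shared shares in the flanks of 31.0% and 25.2%, against 36.4% and 28.2% of all peaks.

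Most shares with a consensus were smaller in shorter windows, but TGACAG stayed at 33.3% in replicate 2 peaks inside and PBX-MEIS at 1.72%, 2.10% and 9.09% in flank peaks and sites. For TGACAG in windows of 200 and 100 bp, the 4 replicate 1 peaks inside had 25% and 25%, flank peaks of replicate 1 had 25.9% and 20.7%, and those of replicate 2 had 24.5% and 18.9%, against 30.2% and 22.2% of all peaks. Flank sites had TGACAG in 36.4% and 27.3%, below the 46.4% and 39.0% of all sites, where the share in 500 bp windows was above. TGATTNAT was in 1.72% and 0% (replicate 1 flanks), 4.20% and 3.50% (replicate 2 flanks) and 0% and 0% (flank sites). TAATTA was in 0% and 0% of replicate 1 peaks inside, 4.31% and 4.31% of those in the flanks, and 5.59% and 2.80% of replicate 2 peaks in the flanks.

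Within 500 kb in place of 100 kb, 8 of 8 TALE partners, 12 of 14 HOX regulators and 6 of 6 IRX genes had a site, against 67.7% of all genes. With the strongest peaks of a lone replicate in place of the sites, 0 were inside the clusters for either replicate and 8 to 11 in the flanks. These peaks lay within 100 kb of 5 TALE partners in both cases, of 4 to 6 HOX regulators, and of 1 to 2 IRX genes.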
